A study of Rattus norvegicus with 15 samples.

Results

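Chemokines are small secreted proteins that guide white blood cells through tissue, and this account covers the genes for the chemokines and their receptors in rat prostate. The members were taken by name from the deposited gene table: rows with a symbol that begins with Ccl, Cxcl, Ccr, Cxcr or Ackr and a digit, plus Cx3cl1, Cx3cr1, Xcl1 and Xcr1. The 54 members described here, of the 22436 genes in the table, comprise 32 ligands, 18 signalling receptors and 4 atypical receptors. RNA of prostate tissue from SD rats, an outbred laboratory strain, was sequenced in 15 libraries of 3 groups. Control (5 libraries) carries the treatment entry "No", and so does Model (5 libraries), a rat model of chronic prostatitis and pelvic pain (CP/CPPS). The labels used here do not say how the model was induced, nor the rats' age. LIPUS (5 libraries) is the model after low-intensity pulsed ultrasound for 4 weeks, at 1.0 W/cm2 by the titles and 1.5 W/cm2 by the treatment field. That each library is a separate animal is not stated in the labels, and the p-values below then rest on a spread between samples that may be technical only.

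Chemokines are grouped by the spacing of their first cysteines into the CC, CXC, CX3C and XC families, and each binds 1 or more receptors of the G protein-coupled type. Inflammatory chemokines, such as Ccl2 and Cxcl1, are made on demand and draw monocytes or neutrophils, whereas homeostatic chemokines, such as Cxcl12, Cxcl13 and Ccl21, place cells in resting and lymphoid tissue. Atypical receptors of the Ackr family bind chemokines without coupling to G proteins, and take them up or carry them across cells. In the prostate, stroma, epithelium, vessels and resident macrophages can all be sources.

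The libraries differed in make-up before any chemokine was compared. Mitochondrially encoded genes held 3.75 to 4.69% of the reads in Control, 23.5 to 43.5% in Model and 43.0 to 83.3% in LIPUS, which lowers every other FPKM (a read number divided by gene length and library size). Each library was therefore divided by its median ratio to all libraries over 12490 tested genes, and levels below are rescaled FPKM unless stated otherwise. After this step the median log2 change of all tested genes was -0.10 for Model against Control, -0.06 for LIPUS against Model and -0.14 for LIPUS against Control, against -0.90, -0.60 and -1.48 as deposited. Low values were also coarser outside Control: among gene values of 1 to 30 reads, 33.3 to 34.9% were 1 to 3 reads in Control, 10.1 to 17.2% in Model and 7.45 to 12.3% in LIPUS. Whether reads of a low gene in Model or LIPUS are separate molecules was not tested. The summed level of ventral prostate secretory genes was 76963 to 133374 in Control, 255 to 63156 in Model and 11015 to 182466 in LIPUS. Which lobes each library holds is not given in the labels used here, and a different mix of lobes and a change in secretory genes cannot be told apart. LIPUS 10 had the highest mitochondrial share, and Model 7 was the 1 Model library with more ventral than dorsolateral gene signal. The part of these secretory genes in the results was not tested. Each leading count is also given without these libraries.

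Over the whole table, a median of 18541 genes per library had a read in Control, 15231 in Model and 15129 in LIPUS. For the 54 members these medians were 45, 33 and 28. In Control 46 of the 54 members had a read in at least 3 of 5 libraries, in Model 31 and in LIPUS 29, and these 46 are called detected. Of them 27 passed the filter for the test across all genes (above 0.5 FPKM in at least 5 of 15 libraries): 19 ligands, 5 signalling receptors and 3 atypical receptors. A member such as Ccl7, above 0.5 mainly in LIPUS, could enter the test through that group, so counts over the tested members describe those members alone. The 19 detected members below the filter had group means of at most 0.273 in Control, 0.545 in Model and 0.769 in LIPUS. The 8 members not detected were Ccl1, Ccl9, Ccl22, Ccr3, Ccr4, Ccr8, Cxcl2 and Cxcr1, each with at most 15 reads in all of Control, 36 in all of Model and 27 in all of LIPUS.

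The promoters of 7 members that were called in the tests below are shown to let the reader set the ligands that were higher in LIPUS beside those that were lower in the prostatitis groups. Promoters of 41 of the 54 members were matched by gene number in RefSeq (GRCr8 build). Each line gives the 250 bases before the start site, 5′ to 3′. Capitals mark matches to 5 motifs searched on either strand over 300 bases, 50 of them after the start site. They are the TATA box with the letters TATAAA, the GAS element with TTCNNNGAA, the AP-1 site with TGANTCA, the ETS core with GAGGAA and the C/EBP site with TTGCNNCAA, and a base may belong to more than 1 of them. Of the 6 ligands higher in LIPUS than in Control, 5 had a promoter in the table, and they read:
Ccl6, chr10:68883367-68883616, minus strand: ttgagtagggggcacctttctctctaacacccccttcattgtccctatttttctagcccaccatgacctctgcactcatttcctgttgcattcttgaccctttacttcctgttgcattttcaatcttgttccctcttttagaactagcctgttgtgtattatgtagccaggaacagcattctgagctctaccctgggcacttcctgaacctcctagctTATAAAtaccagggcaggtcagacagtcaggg
Ccl7, chr10:67513845-67514094, plus strand: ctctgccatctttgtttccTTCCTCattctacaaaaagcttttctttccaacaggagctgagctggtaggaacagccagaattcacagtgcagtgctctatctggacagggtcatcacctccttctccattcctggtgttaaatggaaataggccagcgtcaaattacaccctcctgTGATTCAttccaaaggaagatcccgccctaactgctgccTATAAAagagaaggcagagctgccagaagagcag
Ccl12, chr10:67567626-67567875, plus strand: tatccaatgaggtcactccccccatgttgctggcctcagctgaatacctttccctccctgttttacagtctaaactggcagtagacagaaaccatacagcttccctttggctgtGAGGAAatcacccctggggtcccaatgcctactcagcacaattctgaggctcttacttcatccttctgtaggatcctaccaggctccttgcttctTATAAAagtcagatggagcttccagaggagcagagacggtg
Cxcl13, chr14:13917921-13918170, minus strand: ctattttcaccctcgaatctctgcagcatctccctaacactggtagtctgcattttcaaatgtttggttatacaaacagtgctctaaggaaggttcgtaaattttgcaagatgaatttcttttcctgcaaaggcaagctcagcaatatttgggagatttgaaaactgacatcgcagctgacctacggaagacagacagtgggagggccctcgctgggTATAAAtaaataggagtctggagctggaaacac
Ccl24, chr12:26737173-26737422, plus strand: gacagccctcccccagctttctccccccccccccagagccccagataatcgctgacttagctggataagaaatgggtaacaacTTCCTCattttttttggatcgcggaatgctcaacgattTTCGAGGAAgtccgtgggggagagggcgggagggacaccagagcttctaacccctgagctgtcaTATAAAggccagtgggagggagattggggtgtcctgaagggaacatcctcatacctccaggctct
The ligands that were lower read:
Cxcl14, chr17:8322900-8323149, plus strand: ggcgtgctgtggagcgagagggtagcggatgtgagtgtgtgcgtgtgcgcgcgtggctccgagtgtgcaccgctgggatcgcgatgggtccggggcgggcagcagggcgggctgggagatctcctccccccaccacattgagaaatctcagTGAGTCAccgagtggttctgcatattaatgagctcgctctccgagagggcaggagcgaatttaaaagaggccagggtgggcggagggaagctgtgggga
Cx3cl1, chr19:10242821-10243070, minus strand: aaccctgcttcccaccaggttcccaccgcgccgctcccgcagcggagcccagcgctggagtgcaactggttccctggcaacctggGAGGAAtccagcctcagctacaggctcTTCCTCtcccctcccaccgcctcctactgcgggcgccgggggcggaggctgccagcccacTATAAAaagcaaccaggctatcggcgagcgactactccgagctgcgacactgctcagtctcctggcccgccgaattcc
A TATAAA stood at -32 in Ccl6, -34 in Ccl7, -41 in Ccl12, -33 in Cxcl13, -65 in Ccl24 and -78 in Cx3cl1, counted from the start site to the first base of the match, and Cxcl14 had none. The letters TATAAA occurred in 12 of the 41 member promoters (29.3%) and in 14.2% of all 33469 promoters in the table. Cxcl14 held 26 CG pairs, more than 84.8% of promoters, and Cx3cl1 held 20, more than 75.8%. Ccl6 held 0, Ccl12 1, Ccl7 3, Cxcl13 5 and Ccl24 7, against a median of 7 over all promoters. The ETS letters occurred in 17 member promoters (41.5%; 27.6% of all), those of Ccl7, Ccl12, Ccl24 and Cx3cl1 among them, and the AP-1 letters in 7 (17.1%; 7.33% of all), those of Ccl7 and Cxcl14 among them. GAS letters were in 6 member promoters (14.6%; 8.87% of all), those of Ccl24 and Ccl7 among them, and C/EBP letters in 2 (4.88%; 2.17% of all). The GAS match of Ccl7 lies after the start site, beyond the bases shown. A match is a description of letters, not of a bound site.

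Model was compared with Control to see what the prostatitis model does to the chemokine genes. Of the 27 tested members 0 rose and 3 fell (11.1%): the ligands Cxcl14 and Cx3cl1 and the atypical receptor Ackr1. Over all tested genes 16.5% rose and 18.7% fell (35.2% in all), so the share that fell is below the background. The members' median log2 change was -0.57, against -0.10 over all tested genes, and 22 of 27 had a negative change. The share of negative changes over all tested genes is not given here. The same 3 members were the ones whose groups did not overlap; 16.4% of all tested genes lay lower in every Model library. As deposited, 11 members fell and 0 rose, against 43.1% and 2.95% of all tested genes. Without Model 7 and LIPUS 10, 6 were called, with the 3 among them. Ccl11 and Cxcl17 were then higher and Cx3cr1 lower. More of all tested genes were called in that setting too (count given below, with the dependence on processing), and the members' share stayed below that background.

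LIPUS was compared with Model to see what ultrasound changed in the diseased prostate. Of the 27 members 4 rose (14.8%) and 0 fell: the CC ligands Ccl6, Ccl7 and Ccl12 and the CXC ligand Cxcl13. Over all tested genes 2.67% rose and 2.44% fell (5.12% in all). The members' median log2 change was 0.86, against -0.06 over all tested genes, and 21 of 27 were positive. The share of positive changes over all tested genes is not given here. Every LIPUS library lay above every Model library for Ccl6, Ccl12, Ccl24 and Cxcl13, an order seen in 1.40% of all tested genes (1.79% had the opposite order). As deposited, the same 4 rose, against 1.31% of all tested genes, of which 13.3% fell. These calls come from a fit that pools the spread of all 3 groups. With LIPUS and Model alone in the limma fit, 0 members were called, and 1 of all 12490 genes was called. The 4 members then had adjusted p from 0.0519 for Ccl6 to 0.149 for Ccl7. On the recovered reads limma-voom called 1 member, Ccl6. Without Model 7 and LIPUS 10 the 4 calls stood, Ccl24 was also higher, and Ackr4 was lower, 6 members called. Far more of all tested genes were called in that setting too (count given below, with the dependence on processing). The members' share in either direction was then below that background, so the excess over all tested genes seen with all libraries did not hold there. How the background calls split into higher and lower is not given here.

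LIPUS was also compared with Control. Here 6 members rose (22.2%), Ccl6, Ccl7, Ccl11, Ccl12, Ccl24 and Cxcl13, and 2 fell (7.41%), Cxcl14 and Cx3cl1. Over all tested genes 11.7% rose and 14.0% fell (25.7% in all). The groups of these 8 members did not overlap, as was so for 26.0% of all tested genes (11.2% higher and 14.8% lower in LIPUS). As deposited, 3 members rose (Ccl11, Ccl12 and Cxcl13) and 10 fell, against 0.953% and 74.4% of all tested genes (75.4% in all), and Ccl6, Ccl7 and Ccl24 were not called on that scale. No called member changed sign with the scaling. Without Model 7 and LIPUS 10 the 8 calls stood, and Ackr1, Ackr3 and Ackr4 were lower too, 11 members in all. The share of all tested genes called in that setting is not given here, so the added calls cannot be weighed against it. The 3 comparisons share their groups, so their results are not independent of each other.

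**Figure D1:**
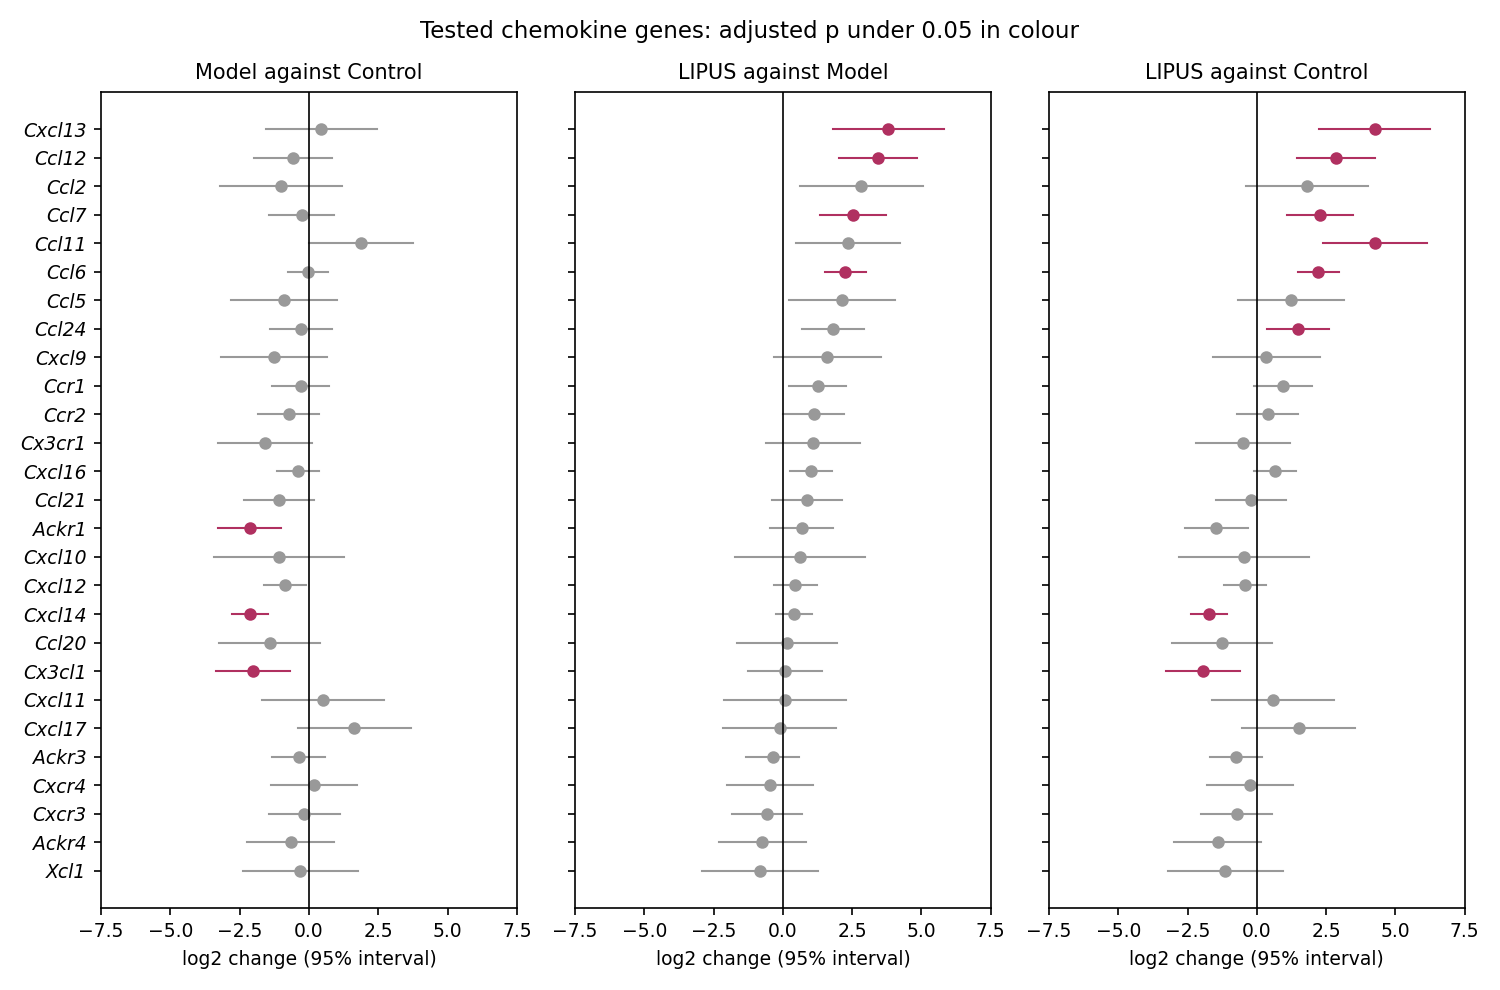
Log2 change of the 27 tested members in each comparison on the x axis, with 95% intervals of the limma fit over all 15 libraries and genes ordered by their change in LIPUS against Model. Coloured points passed an adjusted p under 0.05: 3 lie left of 0 in Model against Control, 4 right of 0 in LIPUS against Model, and 6 right and 2 left of 0 in LIPUS against Control.

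Among the ligands, Cxcl14 was the most abundant in Control. It is a CXC chemokine made by many epithelia, and the textbook pairs used below hold no receptor for it. Its level in Control was 40.3, 28.7, 33.7, 39.5 and 28.4 (libraries 6 to 10, the order used throughout). In Model it was 9.75, 6.29, 11.6, 5.84 and 6.07, and in LIPUS 17.0, 5.49, 10.2, 16.5 and 6.85. Every Control library lay above all 10 others, and Model and LIPUS overlapped. The log2 change was -2.14 ± 0.31 (SE) in Model (limma, adjusted p = 9.31e-05) and -1.72 ± 0.31 in LIPUS (adjusted p = 0.000875) against Control, and LIPUS against Model gave 0.41 (95% interval -0.24 to 1.07). Each of the 27 alternative settings gave the same calls.

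Cx3cl1 (fractalkine), a membrane-bound chemokine of endothelium and epithelium that acts on Cx3cr1, followed the same order. It was at 2.45, 2.38, 1.95, 2.41 and 2.45 in Control. In Model it was at 0.758, 0.103, 0.506, 0.660 and 0.875, and in LIPUS at 0.939, 0.520, 0.698, 1.86 and 0. Control lay above every other library, though LIPUS 9 came close to Control 8. The log2 change was -2.01 ± 0.63 in Model (limma, adjusted p = 0.0221) and -1.94 ± 0.63 in LIPUS (adjusted p = 0.0345) against Control. The first call was lost with a pseudocount of 0.01 (adjusted p = 0.125). The second call was lost in 8 of 26 alternatives, among them each of the 5 that left out a Control library and the one without LIPUS 7.

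Endothelial and fibroblast markers were lower alongside these 2 ligands. Of 10 endothelial markers 4 fell in Model (Cdh5, Tie1 and Pecam1 among them) and 8 fell in LIPUS, both against Control, where 18.7% and 14.0% of all tested genes fell. Their summed level was 15.5 to 25.2 in Control, 1.97 to 14.9 in Model and 5.02 to 11.8 in LIPUS. Of 10 fibroblast markers 8 fell in Model (18.7% of all tested genes), and their sum was 444 to 740 in Control, 58.7 to 159 in Model and 74.0 to 456 in LIPUS. None of these markers was at 0 throughout a group. In bulk tissue, fewer cells of a type and less RNA per cell cannot be told apart, and the part of cell makeup in the chemokine results was not tested.

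Ccl6, a CC chemokine of the macrophage line that acts through Ccr1, was the most abundant ligand in Model and LIPUS. Control libraries held 14.5, 19.1, 17.6, 8.99 and 14.1, and Model libraries 18.8, 9.58, 23.5, 12.9 and 10.0. LIPUS libraries held 61.3, 37.3, 142, 50.9 and 83.4. All 5 LIPUS libraries lay above the other 10, and Control and Model overlapped. The log2 change was 2.25 ± 0.34 against Model (limma, adjusted p = 0.00575) and 2.22 ± 0.34 against Control (adjusted p = 0.000342). Model against Control gave -0.03 (95% interval -0.76 to 0.70). As deposited, LIPUS against Control gave 0.78 (adjusted p = 0.0539).

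Ccl7 and Ccl12, monocyte chemoattractants that act on Ccr2, were low in Control and Model. Ccl12 was at 0.0321, 0.149, 0.608, 0.446 and 0.344 in Control and at 0.0540, 0.739, 0, 0 and 0.505 in Model. In LIPUS it was at 2.85, 5.6, 2.11, 1.17 and 2.37, above every other library. Its log2 change was 3.44 ± 0.66 against Model (limma, adjusted p = 0.0150) and 2.87 ± 0.66 against Control (adjusted p = 0.00521). Ccl7 was at 0.322, 0.299, 0.185, 0.219 and 0.184 in Control, at 0.289, 0, 0.839, 0 and 0.371 in Model, and at 1.53, 1.89, 0.707, 1.56 and 2.50 in LIPUS. Here LIPUS 8 was below Model 8, and the other LIPUS libraries lay above all of Model. Its log2 change was 2.54 ± 0.56 against Model (adjusted p = 0.0242; 0.0647 without Model 9 and 0.0571 without LIPUS 10) and 2.27 ± 0.56 against Control (adjusted p = 0.00801; lost as deposited). Ccl7 rested on 39 reads in all Model libraries and Ccl12 on 25. Ccl2, the related monocyte chemoattractant, had Control, Model and LIPUS means of 0.565 ± 0.204 (SD, n = 5), 0.440 ± 0.615 and 4.29 ± 3.35, with LIPUS 6 at 0, and passed no test (limma, adjusted p = 0.106 against Model).

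Cxcl13, which attracts B cells and follicular helper T cells through Cxcr5, had the largest log2 change among the members in LIPUS against Model. Its level was 0.739, 0.414, 5.20, 0.470 and 0.396 in Control and 3.46, 0, 0.811, 2.70 and 3.19 in Model. In LIPUS it was 9.30, 14.0, 32.2, 7.60 and 48.4. Every LIPUS library lay above the other 10, and Control 8 was above every Model library. The log2 change was 3.81 ± 0.94 against Model (limma, adjusted p = 0.0372) and 4.25 ± 0.94 against Control (adjusted p = 0.00403). The call against Model was lost in 16 of 27 alternatives, while that against Control held in all 27. B and plasma cell markers were low in level, with the highest median in LIPUS and ranges that overlap: their sum over 4 genes had a median of 0.132 in Control (range 0.00779 to 0.161), 0 in Model (0 to 0.811) and 0.994 in LIPUS (0 to 1.39). Cd79a, a part of the B cell receptor, averaged 0.0421 ± 0.0412, 0.0340 ± 0.0640 and 0.624 ± 0.571 (SD, n = 5) in the same order, and Cd79b 0.0256, 0.108 and 0.134. Ms4a1 and Mzb1 were not highest in LIPUS. Ms4a1 averaged 0.0172, 0 and 0.00264, with 0 in every Model library, and Mzb1 0.0237, 0.169 and 0.0745. No gene of this list passed the filter for the test, and its part in the Cxcl13 result was not tested.

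Ccl11 and Ccl24, the eotaxins that act on Ccr3 and draw eosinophils, were also higher in LIPUS than in Control. Ccl11 was at 0.372, 0.987, 0.473, 1.39 and 0.380 in Control, at 8.10, 0.233, 3.32, 5.38 and 2.79 in Model, and at 15.8, 3.12, 60.9, 4.43 and 36.6 in LIPUS. LIPUS lay above all of Control but overlapped Model. Its log2 change was 4.25 ± 0.88 in LIPUS against Control (limma, adjusted p = 0.00267; 0.0533 by limma-voom on the reads). In Model against Control it was 1.89 ± 0.88 (adjusted p = 0.109), and without Model 7, the lowest Model library, it was called. Ccl24 was at 1.84, 2.28, 1.26, 1.60 and 1.23 in Control, at 1.95, 0.137, 1.85, 3.13 and 1.55 in Model, and at 3.69, 3.73, 4.75, 5.68 and 6.14 in LIPUS. All LIPUS libraries lay above the other 10. The log2 change against Control was 1.50 ± 0.52 (adjusted p = 0.0475), a call lost in 18 of 27 alternatives, and as deposited it was 0.10.

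Macrophage markers moved with the ligands that rose. Of 14 tested macrophage and monocyte markers 8 rose in LIPUS against Model (Fcer1g, C1qc and C1qa with the smallest limma adjusted p) and 9 in LIPUS against Control, where 2.67% and 11.7% of all tested genes rose. In Model against Control 3 rose (Aif1, Tyrobp and C1qa) and 2 fell (Cd14 and Csf1r), with a list median log2 change of 0.57 against -0.10 over all tested genes. The summed level of the 15 listed genes was 81.8 to 125 in Control, 114 to 314 in Model and 217 to 690 in LIPUS, and Marco was at 0 in Control and Model. T cell markers summed to 3.59 to 6.05 in Control, 3.27 to 14.5 in Model and 13 to 25.4 in LIPUS. Of 5 tested T cell markers, Cd4 rose in LIPUS against Model and Cd4 and Cd3g in LIPUS against Control. Cd3g had also risen in Model against Control (log2 change 2.36, limma adjusted p = 0.00181), where 16.5% of all tested genes rose. In LIPUS against Model it gave 0.31 (adjusted p = 0.712). Cd2, Cd8a and Lck passed no comparison, and Cd3d, Cd3e, Cd247, Cd5 and Cd8b were below the filter. In Control, Model and LIPUS, Cd4 averaged 2.44, 1.38 and 8.63, and Cd3g 0.508, 3.54 and 4.12. Neutrophil markers summed to 0.339 to 1.44, 0.452 to 5.69 and 1.15 to 6.48. S100a8, the 1 tested gene of this list, averaged 0.315, 1.59 and 2.46. It rose in LIPUS against Control (log2 change 2.64, limma adjusted p = 0.0264), though not as deposited, and passed no other comparison. Elane was at 0 in Model and LIPUS, but averaged only 0.00304 in Control, and Mpo was at 0 in LIPUS. The part of these markers in the chemokine results was not tested.

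**Figure D2:**
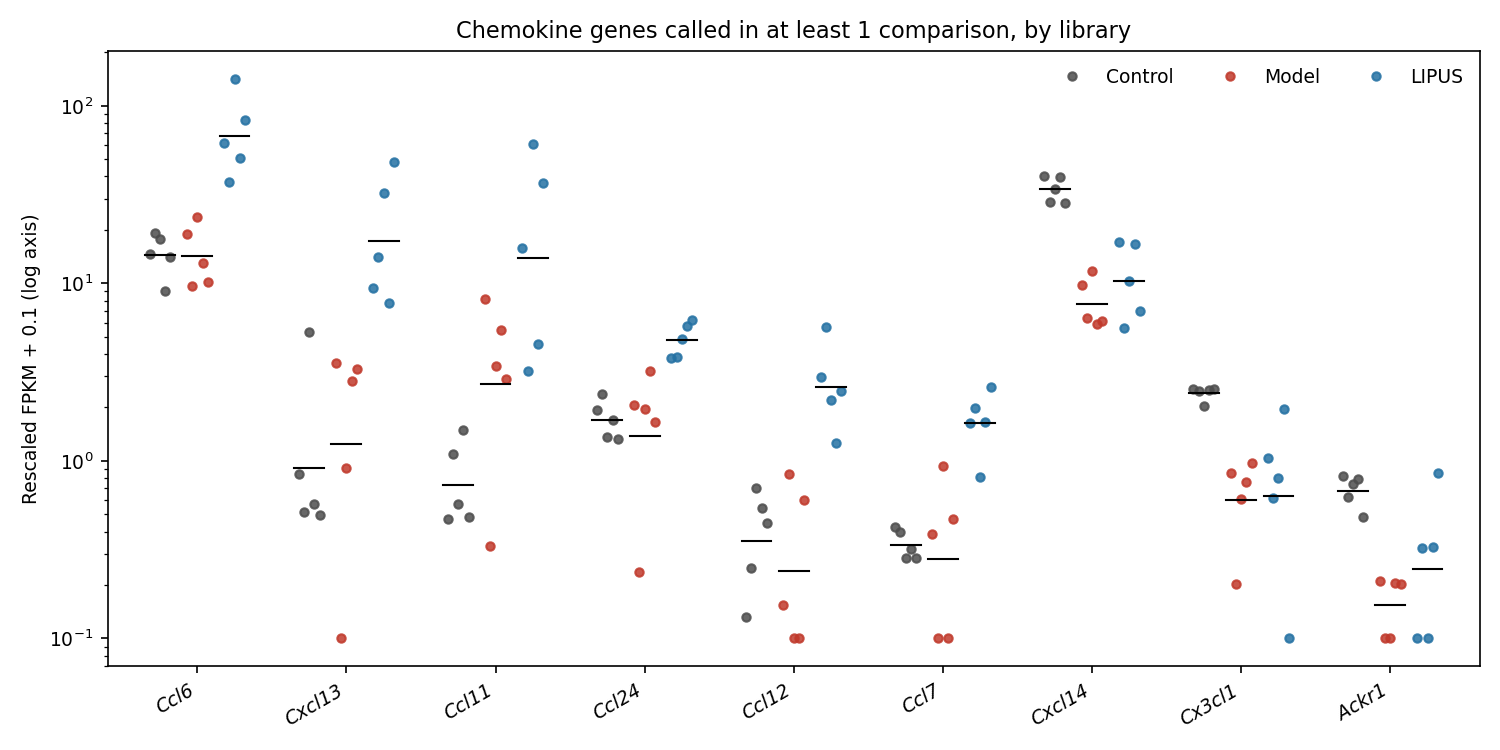
Rescaled FPKM + 0.1 (log axis) of the 9 members called in at least 1 comparison; each point is 1 library and each bar the mean of the group's log values. LIPUS points of Ccl6, Cxcl13, Ccl24 and Ccl12 lie above all others, and Control points of Cxcl14 and Cx3cl1 lie above all others; points at 0.1 are libraries without a read.

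Of the other ligands, Ccl21, a homeostatic chemokine of lymphatic vessels, was among the 4 highest by mean over all 15 libraries and the fifth in LIPUS. It was at 8.57, 10.1, 7.41, 13.4 and 8.52 in Control, at 16.1, 1.56, 4.52, 2.77 and 5.33 in Model, and at 2.94, 3.61, 20.3, 8.88 and 18.4 in LIPUS. The groups overlapped throughout, and no comparison passed. Cxcl12, the stromal ligand of Cxcr4, had Control, Model and LIPUS means of 7.31 ± 2.0, 4.22 ± 1.70 and 5.64 ± 2.34 (SD, n = 5 here and below). Its log2 change in Model was -0.87 (limma, adjusted p = 0.0736). Cxcl16, the membrane-bound ligand of Cxcr6, averaged 5.68 ± 1.33, 4.58 ± 1.88 and 9.60 ± 4.23 in Control, Model and LIPUS, with a log2 change of 1.03 in LIPUS against Model (adjusted p = 0.0939).

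The interferon-induced ligands of Cxcr3 did not pass in any comparison. Cxcl9 averaged 4.21 ± 1.04 in Control, 2.82 ± 1.65 in Model and 7.11 ± 5.08 in LIPUS. Cxcl10 averaged 2.79 ± 0.555, 2.14 ± 1.66 and 3.96 ± 3.68, and Cxcl11 0.244 ± 0.0859, 0.635 ± 0.722 and 1.78 ± 3.34 in the same order. These 3 genes are direct neighbours in the GRCr8 gene order. A single LIPUS library, LIPUS 7, held 299 of the 324 LIPUS reads of Cxcl11.

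Ccl5, a T cell and monocyte attractant, averaged 1.05 ± 0.546 in Control, 1.76 ± 3.04 in Model and 2.45 ± 0.793 in LIPUS. Its Model libraries ran from 0 to 7.09. Ccl20, the ligand of Ccr6, averaged 1.14 ± 0.673, 0.436 ± 0.419 and 0.705 ± 0.694. Cxcl17, a mucosal chemokine, averaged 0.136 ± 0.246, 0.652 ± 0.515 and 0.818 ± 0.796, and Xcl1, the ligand of Xcr1, 0.450 ± 0.415, 0.406 ± 0.424 and 0.426 ± 0.953. None of these 4 passed a comparison.

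The 9 detected ligands below the filter gave few reads. Ccl4, an attractant of monocytes and T cells, averaged 0.273 in Control and had 0 reads in all 10 Model and LIPUS libraries. Control held 24 reads of it in 4 of 5 libraries. If each read is a separate molecule, a count of 0 allows up to 3 reads in a library, or 0.293 to 0.985 for Ccl4. No single library could therefore show a level below that of Control. Over the groups, the fit without a filter called Ccl4 lower in Model (limma, adjusted p = 0.0130) and in LIPUS (adjusted p = 0.0170) against Control, as it did 12.0% and 9.50% of all genes in the table. Its neighbour Ccl3 averaged 0.143 in Control, 0.0155 in Model and 0.769 in LIPUS. Ccl17, a ligand of Ccr4, averaged 0.0939 in Control and had 0 reads elsewhere. In Model 3 reads would be 0.290 to 0.360 and in LIPUS 0.290 to 0.974, above that Control mean. Ccl28, a mucosal chemokine, averaged 0.169, 0 and 0.0403 in Control, Model and LIPUS. Ccl19, which shares the receptor Ccr7 with Ccl21, averaged 0.0551, 0.545 and 0.490, and Ccl27, a skin-homing ligand of Ccr10, 0.102, 0.241 and 0.109. The neutrophil attractants were low as well. Cxcl1 averaged 0.172, 0.128 and 0.214, Cxcl3 0.0179, 0.0328 and 0.127, and Cxcl6 0.0555, 0.0235 and 0.517, where 1 library held all 97 LIPUS reads of Cxcl6.

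The make-up of the ligand pool does not depend on how a library is scaled, since each ligand is a share of the summed ligand FPKM of its own library. Cxcl14 held a median of 36.6% of that sum in Control (range 31.2 to 44.4%), 11.4% in Model (10.3 to 24.0%) and 4.26% in LIPUS (2.72 to 13%). Ccl6 held 17.8% (9.92 to 20.7%), 24.4% (16.9 to 38.2%) and 37.7% (28.9 to 47.1%). The ratio of Ccl6 to Cxcl14 was 0.228 to 0.665 in Control, 1.52 to 2.22 in Model and 3.08 to 13.9 in LIPUS, 3 ranges that do not overlap. Cxcl13 made up 0.451 to 5.27% of the sum in Control, 0 to 5.40% in Model and 5.63 to 19.3% in LIPUS. A ratio within a library shows unequal change and not which gene moved.

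**Figure D3:**
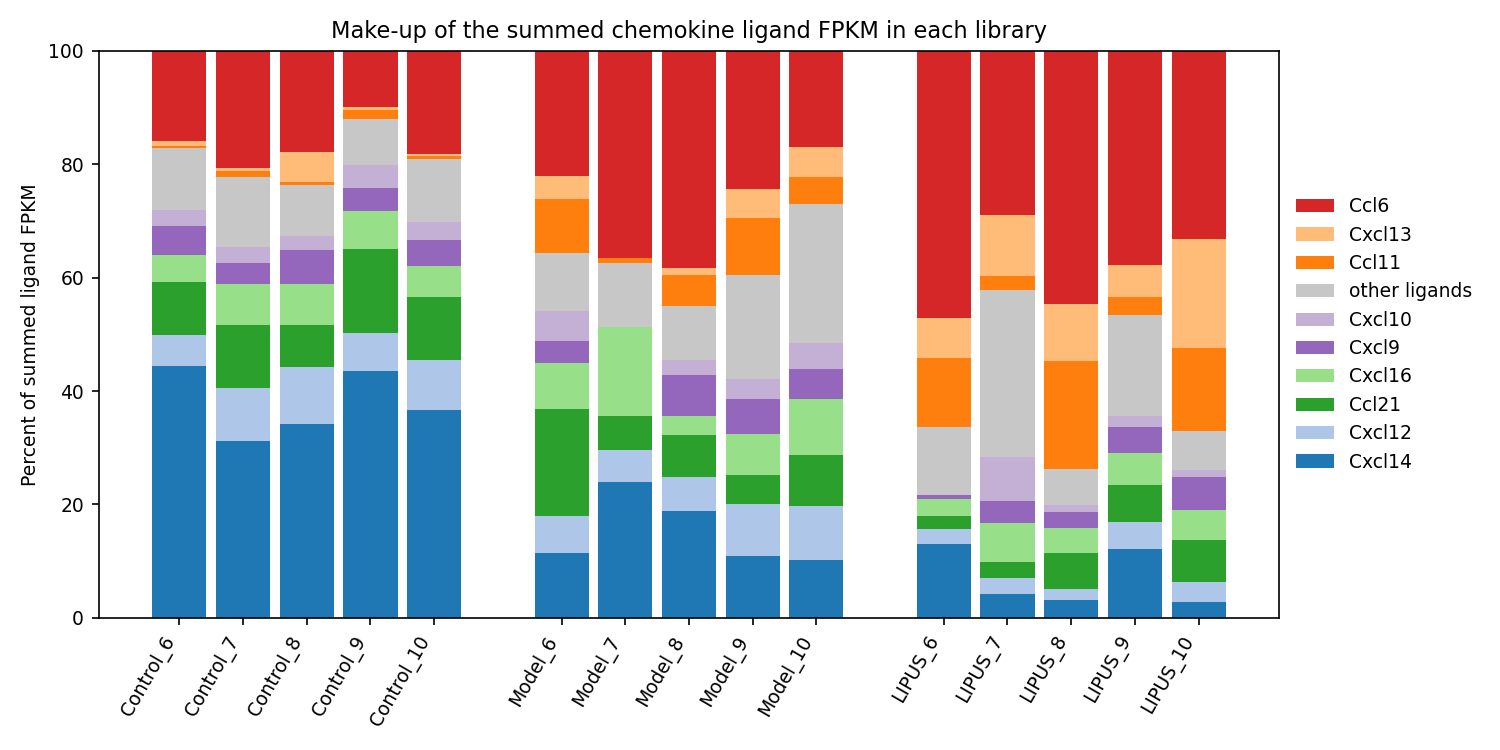
Share of each ligand in the summed ligand FPKM (y axis, percent) for each of the 15 libraries; 9 ligands are drawn and the rest are summed as other ligands. The Cxcl14 block shrinks from 31.2 to 44.4% in Control to 2.72 to 13% in LIPUS, while the Ccl6 block is at 28.9 to 47.1% in LIPUS.

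Receptor levels were far below those of the ligands in every group. The summed ligand level was 9.38 to 12.7 times the summed receptor level in Control, 5.73 to 11.1 times in Model and 15.2 to 32.9 times in LIPUS. The receptor sums, atypical receptors included, were 7.16 to 10.5, 3.59 to 10.7 and 5.42 to 14.8 in that order and overlapped. The ligand sums were 77.5 to 98.7 in Control, 26.3 to 85.2 in Model and 129 to 319 in LIPUS, where every library lay above the other 10.

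Ccr1, the receptor of Ccl5 and Ccl6, was the highest signalling receptor by mean over the 15 libraries. None of the 5 tested signalling receptors described here passed a comparison in the fit of all 15 libraries. Ccr1 was at 0.816, 1.29, 0.904, 0.894 and 0.754 in Control, at 0.441, 1.2, 2.31, 0.430 and 0.324 in Model, and at 1.11, 1.09, 4.37, 1.41 and 2.87 in LIPUS. The groups overlapped. Its log2 change in LIPUS against Model was 1.25 ± 0.49 (limma, adjusted p = 0.125), and it was called without Model 7. Cxcr4, the Cxcl12 receptor of many white blood cells, was at 0.254, 0.490, 0.690, 0.752 and 0.947 in Control, at 1.43, 0.133, 1.74, 0.659 and 0.479 in Model, and at 1.14, 0.415, 0.334, 2.06 and 0 in LIPUS, with no order between the groups. Ccr2, the monocyte receptor of Ccl2, Ccl7 and Ccl12, averaged 0.553 ± 0.116, 0.373 ± 0.309 and 0.885 ± 0.504. Cx3cr1 averaged 0.496 ± 0.0955, 0.192 ± 0.292 and 0.728 ± 1.10, and Cxcr3, of activated T cells, 0.407 ± 0.182, 0.341 ± 0.165 and 0.297 ± 0.330.

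The 9 detected signalling receptors below the filter are mainly of lymphocytes and neutrophils. Cxcr5, the B cell receptor of Cxcl13, averaged 0.151 in Control, 0.255 in Model and 0.139 in LIPUS, and the dendritic cell receptor Xcr1 0.0192, 0.0268 and 0.0157. Ccr6, the receptor of Ccl20, averaged 0.0235, 0.0704 and 0, and Cxcr6 0.0997, 0.0708 and 0. Ccr7, which guides cells to lymph nodes, averaged 0.0780, 0 and 0.0717. The neutrophil receptor Cxcr2 averaged 0.0498, 0 and 0.139, with 1 LIPUS library holding all its reads there. Ccr9, of gut-homing cells, averaged 0.0107, 0 and 0.0552, Ccr10 0.0232, 0 and 0, and Ccr1l1 0.00992, 0 and 0.

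Among the atypical receptors Ackr3, which takes up Cxcl12 and Cxcl11, was the highest receptor of all by mean over the 15 libraries, though in LIPUS alone Ccr1 (2.17) averaged more than Ackr3 (2.05), within their spread. It was at 2.14, 2.93, 4.23, 2.28 and 3.11 in Control, at 3.67, 1.2, 3.05, 1.60 and 2.24 in Model, and at 2.22, 0.537, 1.03, 2.24 and 4.21 in LIPUS. The groups overlapped and no comparison passed. Ackr1, the Duffy antigen receptor of venules and red cells, was at 0.724, 0.524, 0.637, 0.695 and 0.382 in Control, at 0.111, 0, 0, 0.105 and 0.103 in Model, and at 0, 0.224, 0, 0.228 and 0.753 in LIPUS. Model lay below Control throughout, and LIPUS reached from 0 to above Control. The log2 change of Ackr1 in Model was -2.14 ± 0.54 (limma, adjusted p = 0.00612) and in LIPUS against Control -1.46 ± 0.54 (adjusted p = 0.0568); Model held 34 reads in all. Ackr4, which takes up Ccl19 and Ccl21, was at 1.23, 1.99, 1.43, 0.975 and 1.43 in Control, at 1.57, 0.142, 0.978, 1.01 and 1.40 in Model, and at 0, 0.244, 1.3, 0.314 and 2.60 in LIPUS. It passed no comparison. Ackr2, a scavenger of inflammatory CC chemokines, averaged 0.125, 0.177 and 0.184.

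Ligands were then set beside their receptors in 43 textbook pairs, of which 40 had both genes in the table, 30 had both detected and 14 had both tested. No pair had ligand and receptor called in the same comparison. Among the 14 tested pairs, Model against Control had the ligand alone called in 1 and the receptor alone in 1. LIPUS against Model had the ligand alone in 3 and the receptor alone in 0, and LIPUS against Control had the ligand alone in 4 and the receptor alone in 0. Over all tested genes 35.2% were called in Model against Control, 5.12% in LIPUS against Model and 25.7% in LIPUS against Control. Pairs also share members, as Ccl7 and Ccl12 share Ccr2, so the 14 pairs are not separate results.

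The macrophage-line pairs had both partners read in LIPUS. Ccl6 and Ccr1 stood at 14.8 and 0.931 in Control, 15 and 0.941 in Model, and 75.0 and 2.17 in LIPUS, with reads of both in all 15 libraries. Ccl7 and Ccl12 with Ccr2 were read together in 5 LIPUS libraries and in 3 Model libraries. Ccl12 and Ccr2 stood at 0.316 and 0.553 in Control, 0.259 and 0.373 in Model, and 2.82 and 0.885 in LIPUS.

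For several ligands that were high in LIPUS the receptor was at or near 0. Ccl11 averaged 24.2 and Ccl24 4.8 in LIPUS, while their receptor Ccr3 had 0 reads in all 5 libraries. There 3 reads would be 0.0226 to 0.0760, a bound that holds only if each read is a separate molecule. That was not tested, and low values were coarser in LIPUS, so 0 reads may allow a higher level. Ccr3 was as rare elsewhere, at 0.0126 in Control and 0.0466 in Model. Cxcl13 and Cxcr5 stood at 1.44 and 0.151 in Control, 2.03 and 0.255 in Model, and 22.3 and 0.139 in LIPUS. Cxcl16 averaged 9.60 in LIPUS with 0 reads of Cxcr6, where 3 reads would be 0.0439 to 0.148, so a level near the Control mean of 0.0997 was not detectable in every LIPUS library.

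Among the stromal and vascular pairs, Cx3cl1 and Cx3cr1 stood at 2.33 and 0.496 in Control, 0.581 and 0.192 in Model, and 0.804 and 0.728 in LIPUS. Reads of both were found in 5 Control, 2 Model and 3 LIPUS libraries. Cxcl12 and Cxcr4 stood at 7.31 and 0.627, 4.22 and 0.890, and 5.64 and 0.790, and Cxcl12 with Ackr3 was read together in all 15 libraries. Ccl21 and Ackr4 stood at 9.60 and 1.41 in Control, 6.05 and 1.02 in Model, and 10.8 and 0.892 in LIPUS, whereas Ccl21 with Ccr7 was read together in 5 Control libraries, 0 Model libraries and 1 LIPUS library. No neutrophil pair of Cxcl1, Cxcl2, Cxcl3 or Cxcl6 with Cxcr2 had both genes read in any Model or LIPUS library.

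**Figure D4:**
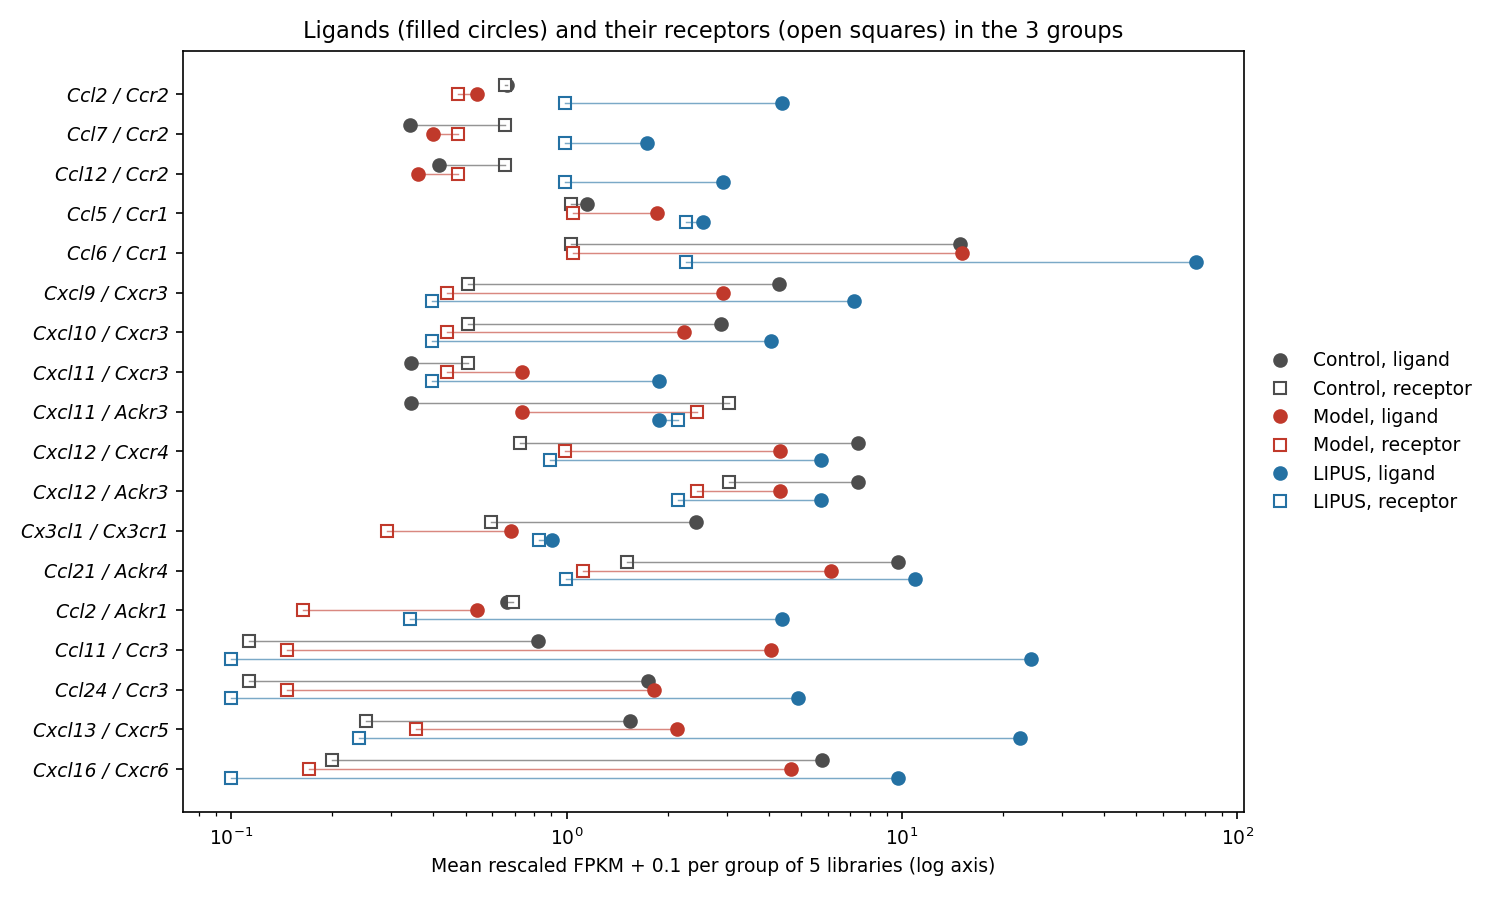
Mean rescaled FPKM + 0.1 (log axis) of ligand (filled circle) and receptor (open square) in each group of 5 libraries, for the 14 pairs with both genes tested and 4 pairs with an untested receptor. The circles of Ccl6, Ccl11 and Cxcl13 reach 75.0, 24.2 and 22.3 in LIPUS while their receptors stay at 2.17, 0 and 0.139.

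Genes behind the receptors were described with a list of 49 signalling genes, from G proteins to cell migration, of which 48 were in the table and 37 were tested. In Model against Control 5 rose and 8 fell, with a median log2 change of -0.21. Shares of 13.5% and 21.6% are near the 16.5% and 18.7% of all tested genes. The G protein subunits Gnb2 (log2 change 1.16, limma adjusted p = 1.24e-05) and Gng5 (1.70, adjusted p = 0.000141) rose, and Prex1, a Rac activator of migrating cells, fell (-3.35, adjusted p = 0.000731). In LIPUS against Model 2 rose, Prex1 (2.28, adjusted p = 0.0466) and Rgs18 (2.32, adjusted p = 0.0479), a regulator of G protein signalling in blood cells, and Gnb2 fell (-0.51, adjusted p = 0.0410). In LIPUS against Control 8 rose and 0 fell, among them Rac2, the Rac of blood cells (1.64, adjusted p = 0.00129), and Rap1b, which activates integrins (0.91, adjusted p = 0.00214). Over all tested genes 2.67% rose and 2.44% fell in LIPUS against Model, and 11.7% rose and 14.0% fell in LIPUS against Control. As deposited, 0 rose and 28 fell in LIPUS against Control, near the 74.4% of all tested genes that fell on that scale.

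Position in the genome was read from the GRCr8 gene order, where all 54 members were found. Of the called ligands, Ccl7, Ccl11 and Ccl12 lie in 1 run of 5 neighbours with Ccl2 and Ccl1, and Ccl6 lies in another run of 5 with Ccl5, Ccl9, Ccl3 and Ccl4. In the first run, Ccl1 had 1 read in all 15 libraries while the other 4 had LIPUS means of 1.64 to 24.2. In the second run, Ccl6 averaged 75.0 in LIPUS, Ccl5 2.45, Ccl3 0.769, Ccl9 0.0820 and Ccl4 0. Cx3cl1 lies between Ccl17 and Ccl22, which had 8 reads each in all of Control.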

How the data were processed

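Prostate RNA of 15 libraries was analysed. The authors deposited FPKM per gene (rat build rn6); the submitters' processing notes list DESeq2, HTSeq, HISAT2, fastp, SAMtools and R 3.2.0, in no stated role. The strand of the libraries is not given in the sources used here, so overlapping antisense genes cannot be told apart. From these values the whole-number reads behind each gene could be worked back for 22436 genes (100%, within 0.001), and libraries held 29675962 to 36402094 reads, 1470 to 13337 of them on chemokine genes. A count of 0 was taken to allow 3 reads, which covers counting error only.

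Each library was divided by the median ratio of its FPKM + 0.1 to the geometric mean over libraries. Values as log2(rescaled FPKM + 0.1) of 12490 genes, those above 0.5 FPKM in at least 5 of 15 samples, were fitted with limma 3.58.1 (R 4.3.3, intensity trend, all 15 samples), with Benjamini-Hochberg adjustment and calls at an adjusted p under 0.05. A fold on this scale understates the change of low genes. The fit was tested on simulated data. Alternatives were 3 scalings, pseudocounts of 0.01 and 1, no filter, a stricter filter (1 FPKM in 10 samples), only the 2 groups compared, a replicate block, 15 fits that leave out 1 library and limma-voom on recovered reads. Fits without Model 7 and LIPUS 10 and with array weights were chosen after seeing the data. The members, the ligand-receptor pairs and all gene lists were chosen with earlier results of these data known. Values per library are given for each called member and for the 4 ligands and 4 receptors of highest mean; all detected members described are named. Of the genes that the naming rule and the marker lists hold, 1 each is not reported here and enters no count or sum of members or markers; neither was taken out of the fit over all genes or its background. Figures were drawn with matplotlib 3.10.9.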

Additional observations from a re-analysis of the deposited data

Results flagged for a closer look

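Among 14 genes with values given per library, 42 groups of 5 libraries were searched for a highest or lowest library far from the rest. Far meant a gap over 0.71 of the group's range, with gap and range taken on log2(rescaled FPKM + 0.1). On that scale 4 groups had such a library, and the levels below are rescaled FPKM. Chance alone gives about 1 such group in 20. Ccl24 was at 0.137 in Model 7 and at 1.55 to 3.13 in the other Model libraries, and Ackr4 was at 0.142 in Model 7 and at 0.978 to 1.57 in the others. Cxcl13 was at 5.20 in Control 8 and at 0.396 to 0.739 in the other Control libraries. Cx3cl1 was at 1.95 in Control 8 and at 2.38 to 2.45 in the others.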

How the results depend on the processing

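No call of a named member reversed in any alternative run. For Model against Control (3 members called), the count was 11 as deposited, 1 with the stricter filter, 5 with limma-voom, 6 without Model 7 and LIPUS 10, and 7 with array weights; over all genes it was 4393, against 6630 and 7677 in the last pair of settings. For LIPUS against Model (4 members), it was 2 with a pseudocount of 0.01, 2 with the stricter filter, 0 with only the 2 groups compared, 1 with limma-voom, and 2 to 6 when 1 library was left out (2 without Model 9 or LIPUS 10). Over all genes that comparison gave 639 calls, against 1820 as deposited, 323 per nuclear read, 319 with no filter, 1 with only the 2 groups compared, 123 with limma-voom, 4357 without Model 7 and LIPUS 10, 2580 with array weights, and 135 to 4030 when 1 library was left out (4030 without Model 7, 135 without Model 8 or Model 9). For LIPUS against Control (8 members), it was 13 as deposited, 5 with a pseudocount of 0.01 and 5 with the stricter filter; over all genes 3204, against 9415 as deposited and 2129 with the stricter filter. The stricter filter tests fewer genes; the cause of the other differences was not tested. The labels used here do not say whether the replicate numbers pair the libraries. Of 15 same-numbered pairs 3 had deviations correlated above 0.1 (range -0.42 to 0.25), and differently numbered pairs ran from -0.38 to 0.46. Such correlations cannot decide it, since other differences between the libraries enter them too. With a replicate block LIPUS against Model gave 2 members and 142 genes, while Model against Control kept its 3 calls and LIPUS against Control gave 7 members. Ccl12 was not called in LIPUS against Model with only the 2 groups compared (adjusted p = 0.0828) and with limma-voom. Depth limits low members, and short genes most: for a gene of 1 kb, 3 reads are 0.0448 to 0.0558 in Control and 0.0817 to 0.275 in LIPUS. For the short gene Ccl4 they are 0.160 to 0.200 in Control and 0.293 to 0.985 in LIPUS.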

Other observations

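Genes related to the chemokine system but outside the naming rule were listed as values. Pf4 (platelet factor 4, a CXC chemokine by structure) had Control, Model and LIPUS means of 4.01 ± 1.17, 8.98 ± 2.87 and 32.2 ± 27.4 (SD, n = 5), a log2 change of 2.64 in LIPUS against Control (limma, adjusted p = 0.000599). Ccrl2, a chemerin-binding receptor related to the chemokine receptors, averaged 0.857 ± 0.115, 0.145 ± 0.141 and 0.676 ± 0.913, with a log2 change of -2.20 in Model against Control (adjusted p = 0.0172). Its ligand chemerin, Rarres2, averaged 11.5 ± 2.82, 4.50 ± 1.98 and 11.1 ± 6.30 (-1.52 in Model, adjusted p = 0.0322). Dpp4, a protease that trims several chemokines, averaged 0.894 ± 0.285, 0.131 ± 0.126 and 0.418 ± 0.305 (-2.23 in Model, adjusted p = 0.00110). Mif, a cytokine that can bind Cxcr4, averaged 18.4 ± 2.09, 36.5 ± 10.8 and 30.3 ± 7.36 (0.92 in Model, adjusted p = 0.00686). The heparan sulfate carriers Sdc1 and Sdc4, which hold chemokines at cell surfaces, and Cd74, the Mif receptor, passed no comparison. Cmklr1, the signalling receptor of chemerin, was below the filter.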
